A study of Mus musculus with 9 samples.

Results

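The MYC and MAX network is a family of transcription factors that bind DNA in pairs. Its 9 genes examined here are Myc, Max, Mxd1, Mxd3, Mxd4, Mxi1, Mnt, Mga and Mlx, chosen by name from the 55471 gene identifiers in the count files, and each was found under its GENCODE M21 symbol. MYC activates growth genes when paired with MAX. The MXD proteins, MXI1 and MNT compete for MAX on the same DNA element and recruit the SIN3 and histone deacetylase corepressors, MGA joins MAX to a Polycomb complex, and MLX pairs with the glucose-responsive factors MondoA and ChREBP. In CD8+ T cells, MYC is induced by antigen and drives the growth and metabolic remodelling of early clonal expansion, and MXD proteins are known for their rise in cells that leave the cycle, apart from MXD3, which is linked to S phase.

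Polyadenylated RNA was sequenced from spleen-derived OT-I CD8+ T cells, which carry 1 transgenic receptor for an ovalbumin peptide, so the cells share a single specificity. Control cells (n = 4) were Bdh1-WT and received shCtrl, a short hairpin RNA against firefly luciferase. DKO cells (n = 5) were Bdh1-KO and received shOxct1, a hairpin against Oxct1, so that in this group 1 ketone-using enzyme is labelled as deleted and the other as knocked down. Cells of both groups were activated for 24 h with anti-CD3, anti-CD28 and IL-2, transduced, grown for 2 more days in 50 U/ml IL-2, sorted on the Ametrine reporter, and given to CD45.1 C57BL/6 mice that keep their own T cells. LmOVA, a Listeria strain with ovalbumin, was given 1 day later, and CD45.2 Ametrine+ cells were sorted on day 7. The labels do not give the age or sex of the mice or how Bdh1 was deleted. Whether the libraries of a group come from separate mice is not stated in the labels, so p-values measure the spread between these libraries, which may be technical.

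Libraries held 45205993 to 59853080 counts in genes. Oxct1, at 63.1 ± 5.73 CPM (counts per 1000000 counts in genes, SD, n = 4) for control and 5.16 ± 0.369 CPM (n = 5) for DKO, and Bdh1, at 30.5 ± 4.16 and 10.6 ± 1.24 CPM, were lower in DKO. Bdh1 kept 455 to 682 counts in each DKO library, and whether those reads come from undeleted exons cannot be read from counts per gene. Control replicates 1 and 3 stood apart on the first and second principal components. Cd3e (1190 and 1060 CPM in control and DKO) and Cd8a (719 and 715 CPM) were abundant and Cd4 was at 0.172 and 0.344 CPM. Cd8b1, which encodes the other CD8 chain, was at 2250 ± 280 and 1700 ± 129 CPM, the 1 called gene of the 10 CD8 T cell markers (adjusted p = 0.0428, edgeR, no overlap). Cd3d (687 and 547 CPM, adjusted p = 0.223, edgeR) and Cd3g (988 and 803 CPM, adjusted p = 0.304) missed the threshold. Of the 10 markers, 6 had a negative and 4 a positive log2 fold change. The 4 were Cd5 (252 and 297 CPM), Zap70 (283 and 307 CPM), Lck (2750 and 2810 CPM) and Gzmb (1130 and 1170 CPM). The B cell list summed to 187 to 271 CPM in control and 195 to 216 CPM in DKO, led by Ighm, with 3 of 10 genes above 1 CPM and Pax5 at 0. The erythroid and platelet list summed to 6.87 to 36.1 and 10.3 to 35.7 CPM (4 of 8 genes above 1 CPM). For CD4 T cells the sums were 30.7 to 39.3 and 34.6 to 46.6 CPM (2 of 4). The myeloid list summed to 165 to 184 CPM in control and 116 to 128 CPM in DKO (exact permutation test, two-sided, p = 0.0159, the smallest that the relabellings allow, adjusted over 6 lists 0.0476), with 6 of 14 genes above 1 CPM. Ctss (81.1 and 51.2 CPM, adjusted p = 0.00734, edgeR), Itgam and Xcr1 made up most of that sum, and Lyz2 was at 2.43 and 5.84 CPM. The CD8 T cell list summed to 9840 to 12700 and 9740 to 10800 CPM. The part of the marker lists in the results was not tested.

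Promoter stretches are shown for the genes called in edgeR, Mxd3 and Mxd4. They are also shown for Mnt and Mlx, which like Mxd4 hold the CACGTG element that MYC and MAX pairs bind (the E-box). RefSeq start sites were found for 8 of the 9 genes, without Myc. Each sequence reads 5′ to 3′ on the gene's strand and lies before the start site in GRCm38.p6, with capitals for CACGTG and for TTCCCGC or its reverse complement GCGGGAA, letters that E2F factors can bind.

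Mxd4, chr5:34187721-34187960, minus strand: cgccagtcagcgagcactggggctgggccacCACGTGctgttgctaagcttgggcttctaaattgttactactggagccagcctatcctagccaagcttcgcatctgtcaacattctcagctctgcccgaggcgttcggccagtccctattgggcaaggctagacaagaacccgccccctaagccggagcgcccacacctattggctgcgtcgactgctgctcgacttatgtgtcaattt

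Mxd3, chr13:55329824-55329981, minus strand: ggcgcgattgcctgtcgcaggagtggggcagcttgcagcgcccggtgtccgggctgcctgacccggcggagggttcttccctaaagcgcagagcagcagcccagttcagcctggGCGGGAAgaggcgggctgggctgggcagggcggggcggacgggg

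Mnt, chr11:74830784-74830823, plus strand: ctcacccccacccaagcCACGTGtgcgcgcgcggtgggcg

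Mlx, chr11:101087233-101087272, plus strand: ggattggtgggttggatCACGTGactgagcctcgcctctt

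In the 250 bases before the start, on either strand, CACGTG was present in Mxd4, Mnt and Mlx, and in 6.02% of 32851 RefSeq start sites. TTCCCGC was present in Mxd3, and in 3.82% of the start sites. The start sites of Max, Mxd1, Mxi1 and Mga had neither word in that window. The words describe these letters and show no binding.

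The comparison of DKO with control asks how the RNA of each network gene differs in effector cells meant to lack ketone use. Mxd4 and Mxd3, both genes of the MXD repressor branch, were higher in DKO, and the level of Myc was close in both groups. The call of Mxd3, unlike that of Mxd4, depended on how shared reads were counted and on single libraries. All 9 genes passed the filter on low counts, and 2 of 9 passed an adjusted p of 0.05, both higher in DKO (quasi-likelihood test of edgeR, Benjamini-Hochberg adjusted over 14918 genes). Of all genes tested, 2.83% passed in either direction, 1.32% higher and 1.51% lower in DKO. The median log2 fold change was 0.09 over the 9 genes and -0.01 over all tested genes.

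**Figure D1:**
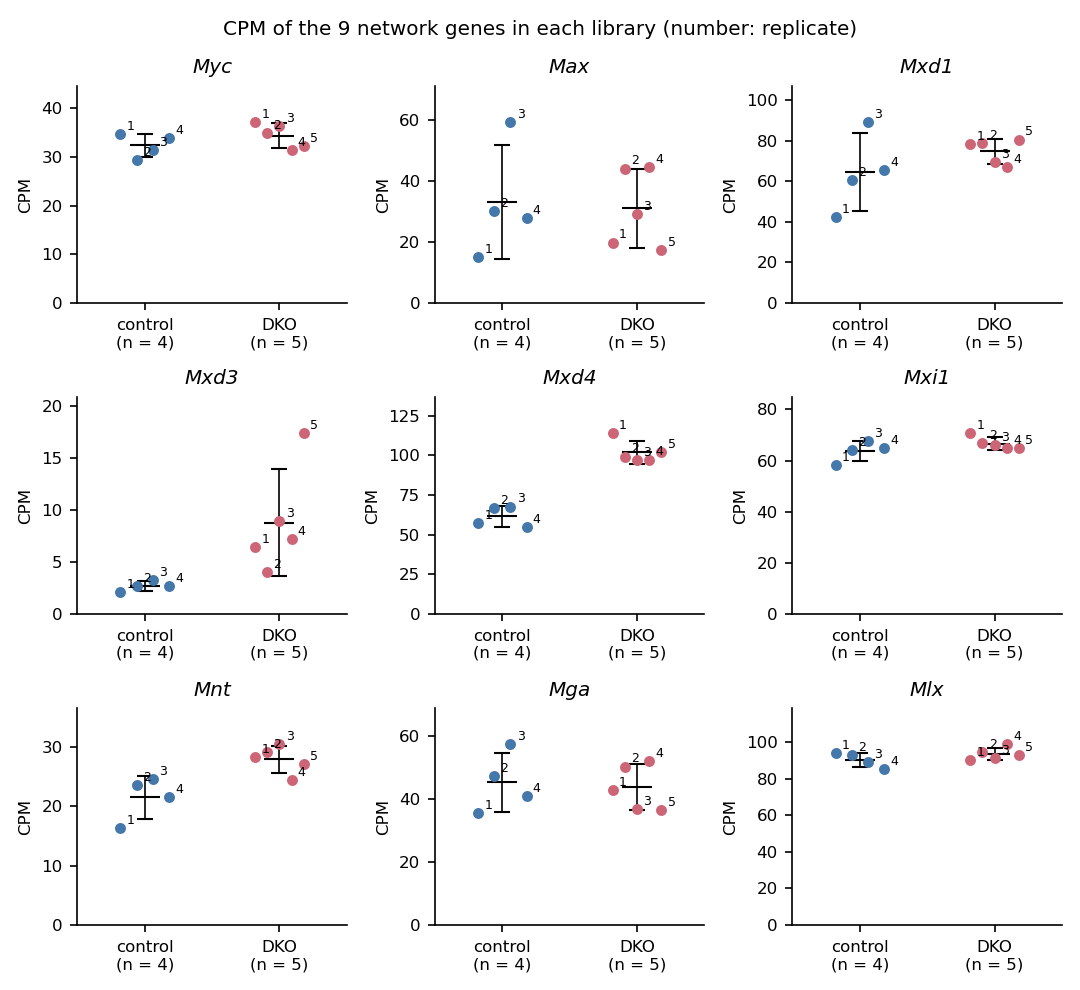
CPM (y axis from 0) of each network gene in the 4 control libraries (blue) and 5 DKO libraries (red), numbered by replicate, with the mean and SD as black bars. Mxd4 and Mxd3 do not overlap between the groups, and Max ranges from 15.1 to 59.2 CPM within control alone.

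Myc (ENSMUSG00000022346.15, plus strand of chromosome 15, 61985391 to 61990374 in GRCm38) is the activator of the network. It was at 34.7, 29.4, 31.3 and 33.9 CPM in control replicates 1 to 4 and at 37.1, 34.9, 36.3, 31.3 and 32.2 CPM in DKO replicates 1 to 5. The 2 groups overlapped, with 3 of the 5 DKO libraries above the highest control. In DKO over control the log2 fold change was 0.09 (SE 0.09, 95% interval -0.11 to 0.29, adjusted p = 0.688, edgeR), which spans a fold of 0.925 to 1.22. Myc varied little between libraries, with a biological coefficient of variation of 10.9%, and 16.1% of 3687 genes within 2-fold of its level varied less. In bulk RNA, fewer cells with a transcript and less transcript per cell cannot be told apart, which holds for every gene here.

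Max (ENSMUSG00000059436.13, minus strand of chromosome 12, 76937269 to 76962201) encodes the partner that MYC, the MXD proteins, MNT and MGA share. It was at 15.1, 30.2, 59.2 and 27.9 CPM in control and at 19.8, 44.0, 29.2, 44.5 and 17.4 CPM in DKO. Libraries of both groups lay at both ends of that range, with control replicate 1 lowest and control replicate 3 highest of all 9. The log2 fold change was -0.09 (SE 0.38, 95% interval -0.92 to 0.73, adjusted p = 0.928, edgeR), which spans a fold of 0.530 to 1.655. Without control replicate 3 it was 0.34. The spread of Max was wide for its level: its coefficient of variation was 38.7%, against a median of 13.5% over 3641 genes of like level, and 99.9% of them varied less. The cause of that spread was not tested.

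The MXD branch held both called genes. Mxd4 (ENSMUSG00000037235.13, minus strand of chromosome 5, 34173883 to 34187720) encodes a MAX-binding repressor found in resting and differentiated cells. It was at 57.2, 66.8, 67.7 and 54.6 CPM in control and at 114, 99.2, 96.8, 97.3 and 102 CPM in DKO. Every DKO library lay above every control library, with a gap from 67.7 to 96.8 CPM. CPM did not overlap between the groups for 8.71% of all tested genes, 4.62% higher and 4.09% lower in DKO. The log2 fold change was 0.73 (SE 0.09, 95% interval 0.52 to 0.93, adjusted p = 0.00289, edgeR), a 1.66-fold rise that placed Mxd4 30th of all genes by p. Mxd4 kept the threshold without each library in turn, with an adjusted p of 0.0017 to 0.0125. Its counts ranged from 2774 to 5857, so depth did not limit it. An antisense transcript, Gm42846, overlaps 6.06% of its exon bases, and with both strand columns summed, which adds back shared reads, the log2 fold change was 0.74.

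Mxd3 (ENSMUSG00000021485.14, minus strand of chromosome 13, 55325168 to 55329823) encodes the MXD protein made during S phase. It was at 2.14, 2.71, 3.25 and 2.69 CPM in control and at 6.40, 4.03, 8.91, 7.17 and 17.4 CPM in DKO, from 104 to 822 counts a library. The groups did not overlap, and DKO replicate 5 lay far above the other DKO libraries. Mxd3 had a log2 fold change of 1.70 (SE 0.36, 95% interval 0.91 to 2.49, adjusted p = 0.0337, edgeR), and 1.29 without DKO replicate 5 (adjusted p = 0.0286). Leaving out 1 library lost the call in 6 of 9 cases, those of controls 2, 3 and 4 and of DKO 1, 3 and 4, at an adjusted p of 0.053 to 0.0939. The value also depends on the counting. The end of Mxd3 overlaps 105 exon bases of Prelid1 on the opposite strand, a gene at 244 CPM (control) and 256.5 CPM (DKO), and unstranded counting leaves out reads that touch both. Summing the strand columns gives those reads to both genes, which put Mxd3 at 24.6 and 29.7 CPM, with a log2 fold change of 0.28 and an adjusted p of 0.332. The shared reads were at 20.9 to 30.7 CPM in control and 21.5 to 26.1 CPM in DKO, more than the CPM of Mxd3 itself in any library. The overlap is 4.43% of the exon bases of Mxd3, while the reads of Mxd3 alone were at 2.14 to 3.25 CPM in control. The summed level and its log2 fold change therefore include reads that may come from Prelid1, and how many was not tested.

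**Figure D2:**
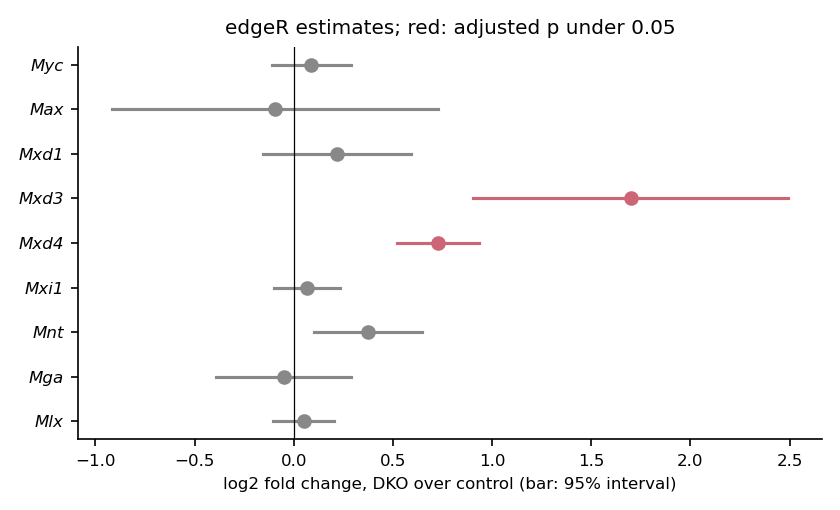
Log2 fold change of DKO over control (x axis) for the 9 network genes, with 95% intervals from edgeR. Red marks an adjusted p under 0.05: Mxd3 at 1.70 and Mxd4 at 0.73 lie right of 0, and the interval of Max is the widest of the other 7.

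Mxd1 (ENSMUSG00000001156.9, minus strand of chromosome 6, 86647042 to 86669161), the MXD gene known for its rise in terminal differentiation, was at 42.4, 60.7, 89.2 and 65.4 CPM in control and at 78.5, 78.9, 69.6, 67.0 and 80.6 CPM in DKO. The control libraries spanned the whole DKO range. Its log2 fold change was 0.22 (SE 0.17, 95% interval -0.16 to 0.59, adjusted p = 0.583, edgeR). Mxi1 (ENSMUSG00000025025.14, plus strand of chromosome 19, 53310518 to 53375810), which encodes a further MAX-binding repressor of the same family, was at 58.2, 64.1, 67.6 and 64.9 CPM in control and at 70.7, 66.7, 66.2, 64.9 and 64.8 CPM in DKO. The groups overlapped, and the log2 fold change was 0.07 (95% interval -0.10 to 0.23, adjusted p = 0.720, edgeR), so a change in Mxi1 as large as that of Mxd4 lies outside its interval.

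Mnt (ENSMUSG00000000282.12, plus strand of chromosome 11, 74830920 to 74845725) encodes the broadly made repressor that competes with MYC in cycling and resting cells alike. It was at 16.4, 23.6, 24.6 and 21.6 CPM in control and at 28.3, 29.2, 30.5, 24.5 and 27.2 CPM in DKO. The groups overlapped by 1 library on each side, control replicate 3 at 24.6 and DKO replicate 4 at 24.5 CPM. The log2 fold change was 0.37 (SE 0.13, 95% interval 0.10 to 0.65, unadjusted p = 0.0118), and with an adjusted p of 0.158 in edgeR it did not pass the threshold. It passed with 1 surrogate variable as a covariate (0.30, adjusted p = 0.0379). Of all tested genes, 16% had an unadjusted p under 0.05.

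Mga (ENSMUSG00000033943.15, plus strand of chromosome 2, 119897228 to 119969581) encodes the scaffold of the Polycomb complex PRC1.6. It was at 35.6, 47.4, 57.4 and 40.9 CPM in control and at 42.8, 50.3, 36.8, 52.1 and 36.5 CPM in DKO, with DKO inside the control range. Its log2 fold change was -0.05 (95% interval -0.39 to 0.29, adjusted p = 0.902, edgeR). Mlx (ENSMUSG00000017801.15, plus strand of chromosome 11, 101087277 to 101092207) was at 93.9, 92.8, 89.1 and 85.4 CPM in control and at 89.9, 94.7, 91.3, 98.8 and 92.8 CPM in DKO, so the groups overlapped. Its fold change on the log2 scale was 0.05 (95% interval -0.10 to 0.20, adjusted p = 0.779, edgeR). Mlx was the steadiest of the 9 genes, at a coefficient of variation of 9.13%, and 2.77% of 3643 genes of like level varied less. Psmc3ip on the opposite strand overlaps 19.3% of its exon bases, so its level is a low estimate.

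The network genes also varied together within control. For 6 of the 9 (Max, Mxd1, Mxd3, Mxi1, Mnt and Mga), control replicate 1 was the lowest and control replicate 3 the highest of the 4 control libraries, an order seen in 16.9% of all tested genes. Across 14898 genes, the deviation of control replicate 1 from the control mean had a Spearman correlation of -0.462 with exon length, against -0.203 to 0.308 in the other 8 libraries. Whether that moves the members was not tested. Without both of these control libraries the log2 fold change was 0.73 for Mxd4 (adjusted p = 0.00437), 1.68 for Mxd3 (adjusted p = 0.0912) and 0.29 for Mnt (adjusted p = 0.168, edgeR).

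To set the genes beside each other, CPM was divided by exon length in kilobases (RPKM, over the union of all annotated exons, so a gene with rarely used exons reads low). Mlx stood highest, at 45.2 ± 1.92 RPKM in control and 46.8 ± 1.74 RPKM in DKO. Myc followed at 11.9 ± 0.893 RPKM in control, ahead of Mxi1 (9.34 ± 0.581), Max (9.21 ± 5.18), Mxd1 (9.11 ± 2.73), Mxd4 (7.26 ± 0.783), Mnt (4.66 ± 0.784), Mga (2.95 ± 0.614) and Mxd3 (1.14 ± 0.191 RPKM). The last place of Mxd3 depends on the counting. With the strand columns summed it was at 10.4 ± 1.58 RPKM in control and 12.5 ± 2.11 RPKM in DKO. That sum gives Mxd3 every read shared with Prelid1, over an overlap of 4.43% of its exon bases, so it is an upper limit. The unstranded value leaves these reads out and is a lower limit. How the shared reads divide between Mxd3 and Prelid1 was not tested, so the level of Mxd3 between these limits is not settled. The place of Myc ahead of Mxi1 also depends on the counting. With the strand columns summed, control Mxi1 was at 11.2 ± 0.574 RPKM and Myc at 11 ± 0.912 RPKM. Gm10197 on the opposite strand overlaps 2.84% of the exon bases of Mxi1, so the unstranded level of Mxi1 is a low estimate. In the unstranded counts, the control levels from Mxi1 to Mxd1 were within their SDs of each other, and the spread of Max reached the levels of Myc and Mxd4. In DKO, Mxd4 was at 12.02 ± 0.842 RPKM, within the SD of Myc at 12.65 ± 0.940 RPKM, and the SD of Mxd3, at 3.71 ± 2.16 RPKM, spanned Mga at 2.85 ± 0.478 RPKM. With the strand columns summed, DKO Mxd4 was at 13.3 ± 0.727 RPKM, above the SD of Myc at 11.6 ± 0.85 RPKM.

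Of the summed RPKM of the 9 genes, Mxd4 made up 6.66 to 7.82% in control and 9.94 to 12.2% in DKO, and Mxd3 0.984 to 1.21% and 1.46 to 6.57%. With the strand columns summed, the share of Mxd4 was 6.29 to 7.37% and 9.81 to 11.5%, while that of Mxd3 was 7.43 to 11% and 8.14 to 12.6%, which overlapped. The share of Myc was 10.1 to 13.9% in control and 9.96 to 12.4% in DKO. The ratio of Myc to Mxd4, per length, ran from 1.38 to 1.94 in control with a median of 1.67, and from 0.983 to 1.17 in DKO with a median of 1.02. That ratio rests on the unstranded counts. With the strand columns summed, mean RPKM was 11 for Myc and 7.99 for Mxd4 in control, and 11.6 and 13.3 in DKO. The ratio of Myc to the sum of the 6 repressor genes had medians of 0.339 in control and 0.293 in DKO and overlapped between the groups. These shares describe RNA, since protein was not measured, and they carry no test because they rest on the same counts as the fold changes.

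**Figure D3:**
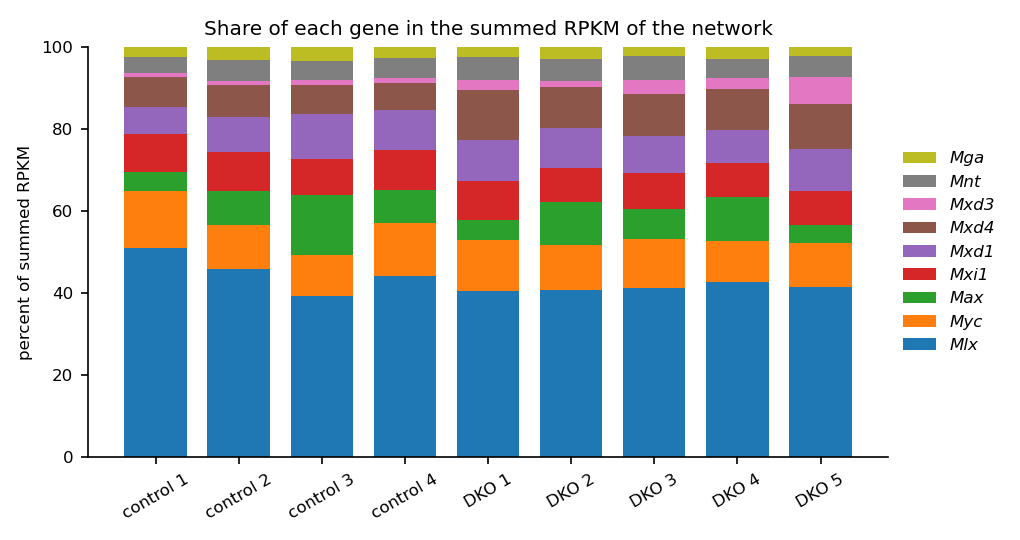
Percent of the summed RPKM of the 9 genes (y axis, 0 to 100) that each gene made up in each library. The Mxd4 band is wider in each DKO library (9.94 to 12.2%) than in each control library (6.66 to 7.82%), and Mlx is the widest band in all 9.

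Proliferation genes moved with the same groups. Of 20 such genes, 14 rose and 0 fell (edgeR, adjusted p under 0.05), with a median log2 fold change of 1.21. The largest rises were in Cenpf, a kinetochore gene (2.43 ± 1.43 to 11.01 ± 3.93 CPM, log2 2.17), Bub1, a spindle checkpoint kinase gene (2.14), Ccnb2, a mitotic cyclin gene (1.57), and Tpx2, a spindle assembly gene (1.56). The list summed to 801 to 961 CPM in control and 1090 to 1790 CPM in DKO (exact permutation test, two-sided, p = 0.0159, adjusted 0.0476). The number called was 2 without control replicate 4, 6 without control replicate 3 or DKO replicate 3, 7 without DKO replicates 1 or 4, and 10 to 14 without each of the others, and it was 2 without control replicates 1 and 3.

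Mxd3 was highest in the DKO library where this sum was highest. Deviations of log2 CPM from the group mean were compared over the 9 libraries, a relation looked at after the values were seen. For Mxd3, Pearson's r was 0.955 (exact permutation within groups, two-sided, p = 0.00312, adjusted over 9 genes 0.0281) and Spearman's rho was 0.867 (exact permutation p = 0.00556, adjusted 0.050). Within DKO, r was 0.971 for Mxd3 and -0.665 to 0.212 for the other 8 genes. Within control it was 0.836, inside the range of 0.708 to 0.971 for the other genes except Myc and Mlx, which were negative. In DKO replicates 5 and 2, the deviation of the log2 sum from the group mean lay farthest from the median deviation. Without these libraries r was 0.745 for Mxd3, 0.746 for Mnt and 0.739 for Max, so what set Mxd3 apart rests on them. For Mxd4, r was 0.205 (exact permutation p = 0.550) and rho 0.250 (p = 0.525). Mxd4 was at 99.2 CPM in DKO replicate 2 and 102 CPM in DKO replicate 5, the lowest and highest DKO libraries on the sum. For Myc, r was -0.564 (exact permutation p = 0.131) and rho -0.617 (p = 0.103). Of the 9 genes, 1 had an adjusted p under 0.05 by Pearson's r and 0 by Spearman's rho.

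**Figure D4:**
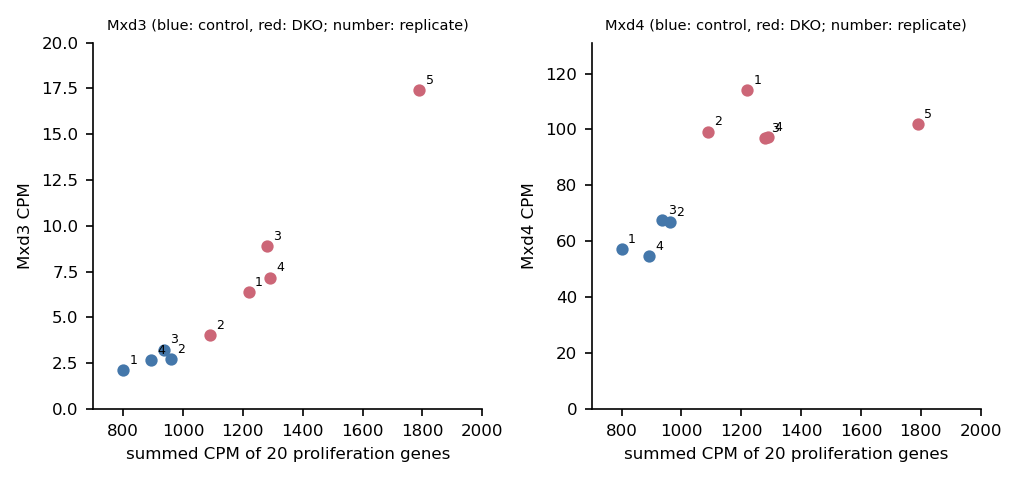
Summed CPM of 20 proliferation genes (x axis) against the CPM of Mxd3 (left) and Mxd4 (right) in each library, control in blue and DKO in red, numbered by replicate. DKO replicate 5 is highest on the sum (1790 CPM) and on Mxd3 (17.4 CPM), while Mxd4 is at 96.8 to 114 CPM in all 5 DKO libraries.

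The genes most like each of Myc, Mxd3 and Mxd4 were sought by Pearson's r of the same deviations over 9 libraries, among 11532 other protein-coding genes. With so many genes and 9 libraries, high values arise in any case. Cdca3 (0.97), Cdca2 (0.957) and Cdc20 (0.954), genes of mitosis, were nearest to Mxd3. Slc30a1, a zinc exporter gene (0.975), Dbp, a clock output gene (0.974), and Rnf135 (0.963) were nearest to Myc. Dsn1 (0.942), Kirrel3 (0.908) and Trmt1l (0.9) were nearest to Mxd4.

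Relatives of the network outside the 9 genes were next. Of the 6 listed, 5 were tested. Mycn, the MYC paralog of embryonic tissue and neuroblastoma, had 0, 0, 0 and 1 counts in control and 0, 20, 12, 11 and 10 counts in DKO. That is 42.7 times the control rate, with a 95% exact interval of 7.34 to 1720 that covers counting error alone. Mycn passed the low-count filter only through DKO, where it is high, so its p is no support. Its adjusted p was 0.0493 in edgeR, and of 10 alternatives that gave a value it passed in 2. Mycl had 0, 0, 0 and 6 counts in control and 16, 8, 13, 5 and 3 in DKO, a ratio of 6.04 (2.57 to 17.3), and fell below the filter, so it was not tested.  Mlxip, which encodes the MLX partner MondoA, was at 55.3 ± 15.8 and 56.7 ± 2.71 CPM (adjusted p = 0.940, edgeR), and Mlxipl, which encodes ChREBP, at 0.300 and 0.294 CPM.

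The targets and partners of the network were described by list. The counts of each list stand beside those of all 14918 tested genes. Of these, 2.83% passed in edgeR and 16% had an unadjusted p under 0.05, while DESeq2 called 1059 and limma-voom 996. Of 36 ribosome biogenesis genes known to be induced by MYC, 0 passed in edgeR, and DESeq2 and limma-voom called 0 each. An unadjusted p under 0.05 was found for 3, all lower in DKO. The median log2 fold change of the list was -0.03, and Ncl, which encodes nucleolin, was at 452 ± 37.5 and 420 ± 14.7 CPM (adjusted p = 0.516, edgeR). Of 35 growth and metabolism genes, with a median of 0.00, 0 passed in edgeR. DESeq2 called 1 and limma-voom called 2, all lower in DKO. An unadjusted p under 0.05 was found for 3, again all lower. The smallest was that of Eif2s1 (158 ± 23.1 and 119 ± 7.25 CPM, adjusted p = 0.057, edgeR, no overlap). Odc1, the polyamine synthesis gene long used as a MYC target, had 48.6 ± 7.06 CPM (control) and 39.8 ± 3.82 CPM (DKO, log2 -0.29, 95% interval -0.53 to -0.04, adjusted p = 0.232, edgeR).

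The cell cycle genes among MYC targets differed from those lists in their counts. Of 12, 3 rose and 0 fell, with a median log2 fold change of 0.38. An unadjusted p under 0.05 was found for 11, all higher in DKO, and for 16% of all tested genes. Without control replicate 1, 5 were called. Plk4, a centriole duplication kinase gene, rose from 19.9 ± 2.64 to 35.7 ± 4.17 CPM (log2 0.84, adjusted p = 0.00463, edgeR), and Mcm5, a replication helicase gene, from 60.6 ± 6.24 to 103 ± 18.7 CPM (log2 0.77, adjusted p = 0.0125). Both kept the threshold without each library. Ccnd2, which encodes cyclin D2, rose from 390 ± 43.2 to 509 ± 29.4 CPM (adjusted p = 0.0407) and lost the threshold without any 1 library other than control replicate 1 (adjusted p 0.0638 to 0.118). Cdk4 was at 184 ± 21.0 and 211 ± 8.08 CPM (log2 0.20, adjusted p = 0.281, edgeR), and passed without control replicate 1 (adjusted p = 0.0358). The summed proliferation genes moved with these, and their part in the list was not tested, nor was the difference between the lists.

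Of 11 tested genes that MYC is known to repress, 2 rose and 0 fell in edgeR, with a median log2 fold change of -0.17. The log2 fold change was positive for 4 and negative for 7. An unadjusted p under 0.05 was found for 2 higher and 2 lower. The lower ones were Ndrg2 (14.5 ± 2.39 and 9.20 ± 2.34 CPM, adjusted p = 0.104, edgeR) and Gadd45b (61.5 ± 4.66 and 53.3 ± 3.95 CPM, adjusted p = 0.273). DESeq2 called 2 higher and 1 lower, and limma-voom 2 higher. Without control replicate 4, edgeR called 0 of the list, and 1 without any single DKO library. Cdkn2c, which encodes the CDK4 and CDK6 inhibitor p18, rose from 26.9 ± 2.43 to 40.8 ± 4.80 CPM (log2 0.60, adjusted p = 0.0154, edgeR) and lost the threshold without control replicate 4 (0.0518). Btg2, an antiproliferative gene, rose from 525 ± 66.5 to 709 ± 35.4 CPM (log2 0.43, adjusted p = 0.0312), and lost it without control replicate 4 or any 1 DKO library (0.0507 to 0.0896). Cdkn1a, which encodes p21, was at 3.99 ± 1.32 and 5.07 ± 1.62 CPM (adjusted p = 0.589, edgeR).

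**Figure D5:**
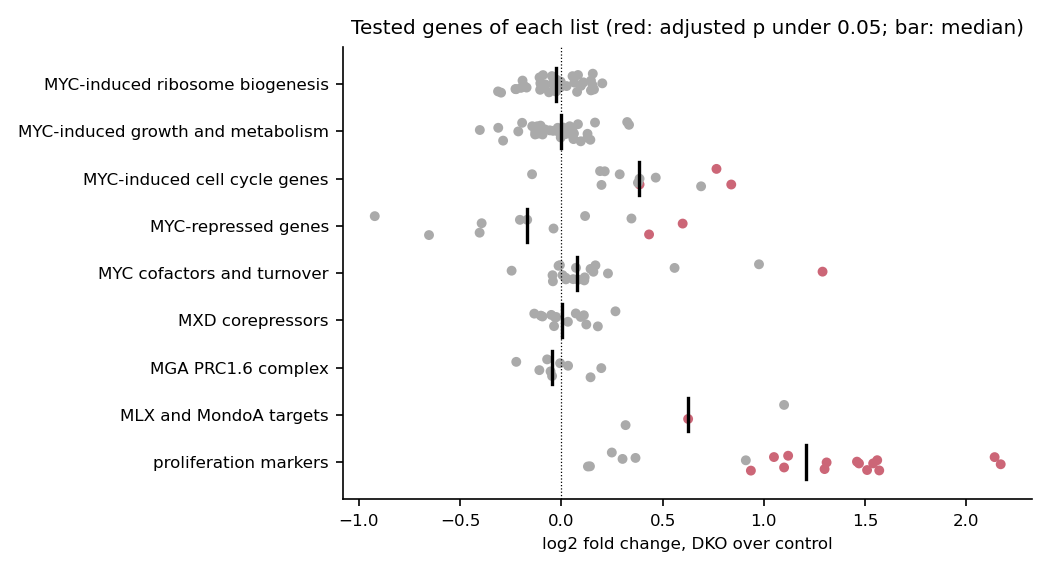
Log2 fold change of DKO over control (x axis) of each tested gene in 9 lists, with list medians as black bars and genes with an adjusted p under 0.05 in red. The ribosome biogenesis genes lie around a median of -0.03, and 14 of the 20 proliferation genes are red, around a median of 1.21.

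Of 20 genes for MYC cofactors and MYC turnover, 1 rose and 0 fell, with a median of 0.08. Of these, 4 had an unadjusted p under 0.05 (3 higher and 1 lower), against 16% of all tested genes. DESeq2 called 3 of the 20 and limma-voom 2, against 1059 and 996 of all 14918 tested genes. Cip2a, which encodes an inhibitor of the phosphatase that marks MYC for decay and whose RNA is also high in dividing cells, was at 3.38, 7.13, 6.52 and 7.88 CPM in control and at 11.6, 11.8, 14.4, 13.9 and 24.4 CPM in DKO (log2 1.29, adjusted p = 0.0345, edgeR). It kept the threshold without control replicate 1 or DKO replicate 2, and lost it without any other 1 library (0.0517 to 0.0743). Of 14 genes of the SIN3 and NCOR corepressors that MXD proteins recruit, 0 passed in edgeR, 2 had an unadjusted p under 0.05, and DESeq2 and limma-voom called 1 each. Of 9 genes of the MGA complex PRC1.6, 0 passed, 0 had an unadjusted p under 0.05, and neither other tool called any.

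Germline genes that PRC1.6 silences in other cells were mostly silent here: of 16, 7 had 0 counts in all 9 libraries, and 3 passed the filter and were tested. Filtered genes that are high in 1 group have to differ, so the count is a description. Tex11, an X-linked meiosis gene, had 57, 32, 34 and 17 counts in control and 0 in all 5 DKO libraries. That is at least 57.9-fold lower when 3 counts in the summed DKO libraries are taken as the limit. Tex11 passed the low-count filter only through control, where it is high, so its p is no support (adjusted p = 0.0059, edgeR). Slc25a31, a germline ADP/ATP carrier gene named after its values were seen, had 10 to 130 counts in each control library (283 in all) and 0, 0, 7, 0 and 0 in DKO, and fell below the filter, so it was not tested. Of the other tested genes, Stag3 was at 0.562 and 0.793 CPM (adjusted p = 0.787) and Tdrkh at 0.738 and 0.737 CPM (adjusted p = 0.992).

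Of the 3 genes listed for MLX and MondoA, 1 rose. Klf10, a TGF-beta-induced factor gene also driven by glucose through MLX, rose from 107 ± 18.6 CPM to 165 CPM (SD 17), with DKO libraries at 151 to 192 CPM (log2 0.63, adjusted p = 0.0238, edgeR), with no overlap. Leaving out control 2, control 4, DKO 1, DKO 4 or DKO 5 lost the threshold (0.0535 to 0.0685). Txnip, the glucose-sensing arrestin gene that is the classic target of MondoA and MLX, was at 618 ± 75.4 and 770 ± 112 CPM (log2 0.32, 95% interval 0.05 to 0.58, adjusted p = 0.225, edgeR), and Arrdc4 at 0.440 and 0.958 CPM (adjusted p = 0.440).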

How the data were processed

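The deposited files hold STAR gene counts, and the authors trimmed reads with Trim Galore 0.6.0 and aligned them with STAR 2.7.8a to mm10, per the submitters' processing notes. The unstranded counts per gene were used, since both strand columns held 49.9 to 50.1% of reads. Counting skips reads that touch 2 genes (4.97 to 5.31% of reads) and multimapping reads (5.80 to 6.79%). Reads in no gene were 4.01 to 5.20%, and unmapped reads 16.7% in control replicate 1 and 10.3 to 12.3% in the others. These rows stayed out of library sizes.

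Symbols, exon lengths and coordinates came from GENCODE M21 (GRCm38), matched without version. CPM used TMM library sizes. After edgeR's low-count filter, 14918 genes were fitted with edgeR 4.0.16 (quasi-likelihood, robust, no covariate) in R 4.3.3, with Benjamini-Hochberg adjustment over all of them and a threshold of 0.05. Alternatives used DESeq2 1.42.0, limma 3.58.1, sva 3.50.0, other filters, both strand columns summed, a replicate block and each library left out. The scripts were tested on simulated data. Single values were compared by exact permutation over all relabellings of the 9 libraries. Promoters came from RefSeq (GRCm38.p6).

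The 9 genes and the lists were chosen with earlier results of these data known. Named were the 9 genes, genes of the network and target lists past the threshold (for MYC target and proliferation lists, the 4 largest in each direction), Odc1, Ncl, Cdk4, Cdkn1a and Txnip, the targeted genes, and the 3 genes most like Myc, Mxd3 and Mxd4. Other genes were named after their values were seen.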

Additional observations from a re-analysis of the deposited data

Results flagged for a closer look

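Among 90 groups of values examined, 8 had 1 library far from the others by Dixon's criterion, which chance alone meets in about 1 in 20 groups. None of the 18 groups of the 9 network genes was among them. In DKO replicate 5, which also had the highest Mxd3, Tpx2 was at 52.9 CPM (others 24.2 to 28.0), Rrm2 at 179 CPM (75.2 to 103), Aurkb at 40.0 CPM (16.7 to 23.1) and Cip2a at 24.4 CPM (11.6 to 14.4). In control replicate 4, Ccnd2 was at 326 CPM (404 to 419) and Mycn at 0.0176 CPM, from 1 count, with 0 in the others. Cenpf was at 4.57 CPM in control replicate 2 (1.57 to 1.88), and Ncl at 508 CPM in control replicate 1 (427 to 441).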

How the results depend on the processing

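Of all tested genes, 422 were called by edgeR, 1059 by DESeq2, 996 by limma-voom, 1148 with 1 surrogate variable, 179 to 749 without each library in turn, and 482 without control replicates 1 and 3, an alternative chosen after seeing the data. Of the 9 network genes, 2 were called, 1 with the strand columns summed, 1 to 2 without each library in turn and 1 without control replicates 1 and 3. Over the network, target and proliferation lists, 23 genes were called, 6 to 27 without each library in turn and 11 without control replicates 1 and 3. The log2 fold change of Max turned positive without control replicates 1 and 3 (0.0788) and ran from -0.346 to 0.344 without each library, and that of Mga from -0.164 to 0.083. Levels per length with the strand columns summed were also added after seeing the data. The log2 ratio of the erythroid and platelet sum ran from -0.224 to 0.495. Deviations of control and DKO libraries with the same replicate number correlated at -0.117 to 0.0124. Whether same-numbered libraries are paired is not stated in the labels and was not tested. With the replicate number as a block, 67 genes, 0 network genes (Mxd4 adjusted p = 0.0558, Mxd3 0.0609) and 2 list genes were called, and the log2 fold change was 0.158 for Max and 0.0182 for Mga. The cause of these shifts was not tested. Without each library, where fewer relabellings exist, the adjusted p of the proliferation and myeloid sums was 0.0571 to 0.107. Mycn, Mycl and most germline genes had too few counts for a firm value.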
